A study of Mus musculus with 10 samples.

Results

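The 37 genes described here encode scaffolds of the postsynaptic density and regulators of the actin cytoskeleton of dendritic spines. They were taken as a list of named genes and matched by symbol to the Ensembl gene IDs of the expression table. All 37 were found among its 47632 genes, and all 37 belonged to the 15905 genes that were tested, those averaging 1 FPKM or more. FPKM is the number of fragments scaled by transcript length and by library size. The samples were striatal RNA from R6/2 mice and from isogenic wild-type control mice, all 11 weeks old at harvest, with 5 libraries in each group. R6/2 mice carry, beside their own huntingtin genes, a transgene with the start of the human gene, its promoter and an expanded CAG repeat, and are a model of Huntington's disease with early onset. The control mice carry no transgene, and no treatment is named for either group. Whether the libraries of a group stand for separate mice is not stated. The tests therefore speak of the spread between libraries, some of which may be technical.

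The postsynaptic density is a protein sheet under the membrane of excitatory synapses, most of which sit on dendritic spines. It is built in layers: membrane-associated guanylate kinase (MAGUK) scaffolds of the Dlg family hold glutamate receptors, proteins of the Dlgap family (also called SAPAP) bind the MAGUKs from below, and Shank proteins bind the Dlgap proteins and link the sheet to the actin of the spine. Actin crosslinkers, guanine nucleotide exchange factors for small GTPases, the WAVE complex and kinases set the shape of the spine. In the striatum most spines belong to the spiny projection neurons, which receive glutamatergic axons from cortex and thalamus, and mice without Dlgap3 or Shank3 groom excessively and have altered corticostriatal synapses.

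Promoter windows are shown for the 4 genes with the largest falls in R6/2 striatum, Actn2, Inf2, Strn and Ngef. The sequences are from RefSeq (build GRCm38.p6), run 5′ to 3′ on the strand of the gene, and hold 250 bases before and 50 bases after a RefSeq start of the gene. They lie at chr13:12340683-12340982 on the minus strand for Actn2, chr12:112588517-112588816 on the plus strand for Inf2 (the first of 2 windows of that gene), chr17:78736512-78736811 on the minus strand for Strn and chr1:87573821-87574120 on the minus strand for Ngef. The RefSeq start of Ngef is also the outermost start of the gene in the GENCODE annotation used below, but that of Strn lies 635 bases inside the GENCODE gene and that of Actn2 28 bases inside it, and that of Inf2 lies 17 bases before it. Capitals mark every match to the 6 motifs searched.
Actn2: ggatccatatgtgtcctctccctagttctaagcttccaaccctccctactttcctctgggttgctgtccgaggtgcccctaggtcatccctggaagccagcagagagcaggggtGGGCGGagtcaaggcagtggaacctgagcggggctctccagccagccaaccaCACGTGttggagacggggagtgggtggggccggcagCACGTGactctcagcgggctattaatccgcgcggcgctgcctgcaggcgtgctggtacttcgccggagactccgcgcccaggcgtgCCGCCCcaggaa
Inf2: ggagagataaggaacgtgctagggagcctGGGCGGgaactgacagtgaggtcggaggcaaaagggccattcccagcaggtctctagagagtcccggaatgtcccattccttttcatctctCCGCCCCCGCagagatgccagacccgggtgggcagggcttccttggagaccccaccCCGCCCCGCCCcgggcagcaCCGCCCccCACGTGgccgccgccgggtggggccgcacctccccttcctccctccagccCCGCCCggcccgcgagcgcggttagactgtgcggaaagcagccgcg
Strn: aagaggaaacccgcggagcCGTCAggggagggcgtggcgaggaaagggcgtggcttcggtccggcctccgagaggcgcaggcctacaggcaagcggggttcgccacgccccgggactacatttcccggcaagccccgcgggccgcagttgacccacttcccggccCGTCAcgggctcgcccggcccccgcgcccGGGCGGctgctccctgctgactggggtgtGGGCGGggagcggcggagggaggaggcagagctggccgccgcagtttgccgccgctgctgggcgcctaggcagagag
Ngef: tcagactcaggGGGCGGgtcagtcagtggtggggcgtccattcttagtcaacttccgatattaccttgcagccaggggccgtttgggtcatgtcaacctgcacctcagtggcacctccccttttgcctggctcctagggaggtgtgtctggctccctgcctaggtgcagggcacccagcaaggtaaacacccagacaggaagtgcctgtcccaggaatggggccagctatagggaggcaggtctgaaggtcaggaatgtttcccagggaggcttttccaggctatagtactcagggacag

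The motifs were searched on both strands. They were the cyclic AMP response element CRE (TGACGTCA), its core (TGACG, which the full element contains), the E-box CACGTG, the GC box (GGGCGG), the Egr1 motif (GCGGGGGCG, which can overlap a GC box) and the CArG box of serum response factor. The Actn2 window held 2 E-boxes and 2 GC boxes, and the Inf2 window held 1 E-box, 6 GC boxes and 1 Egr1 motif. The Strn window held 2 CRE cores and 2 GC boxes, whereas the Ngef window held 1 GC box. The windows also differed in CG dinucleotides, with 19 in Actn2, 25 in Inf2, 35 in Strn and 4 in Ngef. The GC box was the motif that all 4 windows held, and it was found in 35.7% of the 32851 promoter windows of the mouse table and in 61.7% of the 60 windows that belong to 32 of the 37 genes. The Egr1 motif was present in 2.91% of all windows and in 6 of these 60, which belong to Actn1, Baiap2, Inf2, Iqsec2 and Shank3. The E-box was present in 7.15% of all windows and in 16.7% of the 60, the CRE core in 20.8% of all windows and 16.7% of the 60, and the full CRE in 1.79% of all windows and in 1 of the 60, that of Pak1. The CArG box was found in 1.63% of all windows and in 0 of the 60. Of the 32 genes with windows, 22 were called lower in R6/2 and 10 were not called. The GC box was found in 17 of the 22 and in 9 of the 10. For the E-box these counts were 4 and 3, for the CRE core 6 and 3, and for the Egr1 motif 4 and 1. These matches describe letters in the windows and say nothing about binding.

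Of the 37 genes, 24 were lower in R6/2 striatum and 13 were not called in either direction (limma on log2(FPKM + 1), Benjamini-Hochberg adjustment over all tested genes, threshold 0.05). Over all tested genes, 9.11% were called lower and 5.00% higher. The 37 genes were listed with earlier results of these data known. Their median control mean was 42.8 FPKM, against 6.05 FPKM for all tested genes, so these shares are not a like comparison. The limma fit called 0 of the 37 higher, and an unadjusted p under 0.05 in that direction was reached by 3 of them, Shank1, Shank2 and Limk1. In each of the 24 genes called lower every R6/2 library was below every control library, which held for 8.58% of all tested genes, and in each of the other 13 the groups overlapped. The median log2 change of the 37 genes was -0.62, with a range of -1.92 to 0.40, while the median of all tested genes was 0.00. A fall of at least 1.5-fold on the log2(FPKM + 1) scale was seen in 20 of the 37 genes, one of at least 2-fold in 9 and one of at least 3-fold in 3 (Actn2, Inf2 and Strn). Of all 15905 tested genes, 1008 were called lower with a fall of at least 1.5-fold, 425 with at least 2-fold and 117 with at least 3-fold. Log2 changes on this scale understate the change of genes with low values. In bulk tissue, fewer cells of a type and less RNA per cell cannot be told apart.

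**Figure D1:**
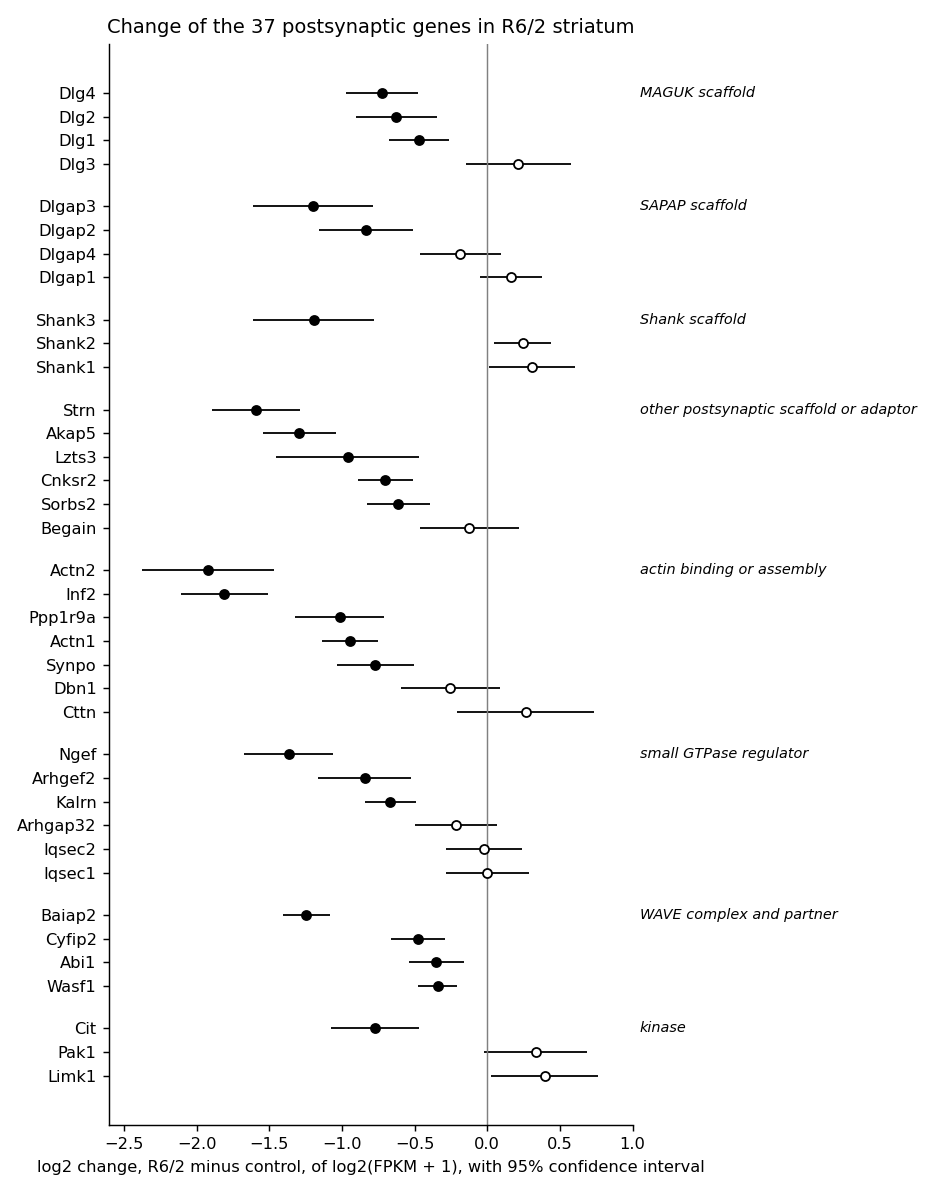
Log2 change of FPKM + 1 in R6/2 relative to control striatum for the 37 genes, grouped by role. Points are limma estimates with 95% confidence intervals, filled where the gene was called lower and open where it was not called. The 24 filled points run from -1.92 to -0.34 and the 13 open points from -0.25 to 0.40.

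Markers of cell types moved with the groups. All 14 markers of spiny projection neurons were called lower (median log2 change -2.32), and their summed level was 374 to 547 FPKM in R6/2 libraries and 1984 to 2567 FPKM in control libraries. Of 10 markers of cortical excitatory neurons, 8 passed the filter and 2 were called higher (median log2 change 0.55), with a summed level of 64.8 to 115.8 FPKM in R6/2 libraries and 31.1 to 64.5 FPKM in control libraries. The other 2, Neurod1 and Emx1, were at 0 in some libraries. The mean log2 level of the 8 tested cortical markers was 2.918 to 3.67 in R6/2 and 2.11 to 2.916 in control. The groups thus did not overlap, but R6/2 library 4 (2.918) and control library 4 (2.916) nearly met. Oligodendrocyte markers were lower in 7 of 10, astrocyte markers in 3 of 10, microglial markers in 1 of 9 and broad neuronal markers in 4 of 10, with 1 broad neuronal marker higher. None of 9 endothelial and mural markers was called by limma, and 0 of them had an unadjusted p under 0.05. The summed levels were 731 to 1124 FPKM in R6/2 and 1563 to 1761 FPKM in control for oligodendrocytes, and 464 to 572 FPKM in R6/2 and 578 to 777 FPKM in control for astrocytes. Microglial markers summed to 64.3 to 69.6 FPKM in R6/2 and 75.3 to 84.7 FPKM in control, and endothelial and mural markers to 75.9 to 88.3 FPKM in R6/2 and 84.7 to 102.8 FPKM in control. Broad neuronal markers summed to 2356 to 3774 FPKM in R6/2 and 3027 to 3448 FPKM in control. Each sum covers all listed markers, whereas the calls cover only those tested. The sums thus include the untested C1qa (microglia), Kdr (endothelial and mural), Neurod1 and Emx1 (cortical). Control library 5 stood apart: its total was 2309123 FPKM, against 1638364 to 1823327 FPKM in the other controls, and it was the lowest control for 13 of the 24 genes called lower. Without it, the same 24 genes were called lower. The absolute depth is unknown. Steps in the low values gave approximate depths relative to control 1 of 0.686 to 1.38 in R6/2 libraries and 0.7103 to 1.02 in control libraries.

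The MAGUK scaffolds fell in 3 of 4 members. Per-library values are given below from library 1 to library 5 of each group. Dlg4, which encodes PSD-95, the most abundant scaffold of the density, is on chromosome 11 (70016942 to 70047522). It measured 185, 159, 144, 175 and 174 FPKM in R6/2, against 283, 243, 297, 332 and 237 FPKM in control. All R6/2 values were below all control values, and the log2 change was -0.72 ± 0.11 (SE, limma adjusted p = 0.00202). Dlg2, which encodes PSD-93, measured 97.1, 128.6, 107.3, 109.1 and 79.5 FPKM in R6/2, against 181, 149, 142, 158 and 169 FPKM in control, again without overlap (log2 change -0.62, limma adjusted p = 0.0096). Dlg1, which encodes SAP97, a scaffold also active in receptor trafficking, averaged 35.4 ± 4.14 FPKM in R6/2 and 49.4 ± 3.46 FPKM in control (SD, n = 5 each; log2 change -0.47, limma adjusted p = 0.00817). Dlg3, which encodes SAP102, the MAGUK most prominent in young synapses, was not called. It measured 20.3, 28.5, 16.4, 13.9 and 18.5 FPKM in R6/2, against 16.0, 17.9, 15.1, 16.5 and 15.7 FPKM in control, and its 95% interval was -0.15 to 0.57.

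The Dlgap family fell in 2 of 4 members. Dlgap3 (chromosome 4, 127169204 to 127237022), a member known for its striatal expression in mice, measured 5.23, 4.54, 3.26, 4.88 and 3.95 FPKM in R6/2, against 12.6, 9.77, 13.5, 14.7 and 7.25 FPKM in control. The lowest control value, that of library 5, was still above the highest R6/2 value, and the log2 change was -1.20 ± 0.18 (SE, limma adjusted p = 0.00211). Dlgap2 measured 26.9, 30.8, 32.4, 27.3 and 24.7 FPKM in R6/2, against 57.2, 40.7, 56.9, 40.6 and 64.3 FPKM in control (log2 change -0.83, limma adjusted p = 0.00442), with every R6/2 value below every control value. Dlgap1 was not called: it measured 32.8, 38.1, 38.0, 33.1 and 35.1 FPKM in R6/2, against 26.8, 35.8, 28.8, 31.9 and 35.0 FPKM in control (interval -0.05 to 0.37). Dlgap4 was not called either, at 20.4 ± 1.74 FPKM in R6/2 and 23.6 ± 4.88 FPKM in control (SD, n = 5 each; interval -0.46 to 0.09), and control library 5 stood above the others.

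Of the Shank genes, only Shank3 was called. Shank3 (chromosome 15, 89499623 to 89560261), the member linked to autism and to striatal synapses, measured 6.37, 4.30, 5.15, 8.21 and 4.37 FPKM in R6/2, against 14.8, 13.3, 18.1, 14.6 and 10.1 FPKM in control. The groups did not overlap, and the log2 change was -1.20 ± 0.19 (SE, limma adjusted p = 0.00227). Shank1 measured 54.9, 60.6, 54.4, 58.5 and 42.6 FPKM in R6/2, against 35.1, 46.4, 39.3, 54.4 and 43.7 FPKM in control, where R6/2 library 5 lay within the control range. Its log2 change was 0.31 with an interval of 0.01 to 0.60 before adjustment and an adjusted p of 0.167 in limma. Shank2 measured 24.8, 25.8, 24.5, 21.5 and 21.3 FPKM in R6/2, against 16.7, 19.6, 20.6, 20.3 and 21.6 FPKM in control (log2 change 0.24, interval 0.05 to 0.44 before adjustment, limma adjusted p = 0.0996). Shank2 was called higher when libraries were rescaled to equal protein-coding totals (log2 change 0.35, limma adjusted p = 0.0237), but in none of the other alternatives. With the cortical marker level as a covariate, its log2 change was 0.14 (limma adjusted p = 0.633). That of Shank1 was then 0.06 (limma adjusted p = 0.909).

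Within these families some ratios between members differed between the groups. The cortical marker level was not taken into account in these ratios, and its part in them was not tested. Ratios within a family, taken as differences of log2(FPKM + 1), were compared between groups for 17 pairs by a two-sided exact permutation test, whose smallest possible p with 5 against 5 is 0.00794. Of the 17, 10 passed 0.05 after Benjamini-Hochberg adjustment over the pairs, and in 9 of these the groups did not overlap (adjusted exact p = 0.015 in each). The log2 ratio of Shank1 to Shank3 was 3.07 in R6/2 and 1.57 in control, a difference of 1.502. The ratio of Shank2 to Shank3 differed by 1.44 (1.91 in R6/2 and 0.47 in control), whereas that of Shank1 to Shank2 differed by 0.06 and did not pass (adjusted exact p = 0.641). Dlgap1 to Dlgap3 differed by 1.36 (2.77 in R6/2 and 1.41 in control), Dlgap1 to Dlgap2 by 0.99 (0.31 in R6/2 and -0.68 in control) and Dlgap2 to Dlgap4 by -0.65 (0.45 in R6/2 and 1.099 in control). Dlg3 gained on each of its relatives: Dlg3 to Dlg4 differed by 0.94, Dlg1 to Dlg3 by -0.69 and Dlg2 to Dlg3 by -0.84. Among Dlg1, Dlg2 and Dlg4 the 3 ratios differed by 0.10 to 0.25, and none passed (adjusted exact p 0.112 to 0.641). Dlgap1 to Dlgap4 differed by 0.35 with overlapping groups (adjusted exact p = 0.0405), a call lost under 9 of 12 alternatives. Dlgap3 to Dlgap4 (difference -1.02, adjusted exact p = 0.0613) and Dlgap2 to Dlgap3 (difference 0.37, adjusted exact p = 0.311) did not pass. Without control library 5, they were -1.27 and 0.59, and both passed (adjusted exact p = 0.0245). With a pseudocount of 0.1 FPKM, Dlgap3 to Dlgap4 was -1.16 (adjusted exact p = 0.0491), but with one of 5 FPKM it was -0.64 (0.0613) and Dlgap2 to Dlgap3 was 0.051 (0.919).

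In levels per length, the summed Dlg family was 327 ± 24.0 FPKM in R6/2 and 504 ± 39.9 FPKM in control, and the summed Dlgap family was 88.6 ± 5.37 FPKM in R6/2 and 118.8 ± 12.4 FPKM in control (SD, n = 5 each). The summed Shank family was 83.5 ± 8.85 FPKM in R6/2 and 77.7 ± 8.15 FPKM in control, ranges that overlap. Shank3 made up 6.80 ± 1.69% of the family total in R6/2 and 18.4 ± 4.17% in control. Dlgap1 made up 39.98 ± 2.00% of the Dlgap total in R6/2 and 26.8 ± 4.22% in control, while Dlgap2 made up 32.0 ± 1.59% in R6/2 and 43.4 ± 5.54% in control, so that Dlgap1 in R6/2 and Dlgap2 in control had the highest level of the family. Dlg4 remained the most abundant Dlg gene, at 51.4 ± 5.04% in R6/2 and 55.04 ± 3.88% in control.

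**Figure D2:**
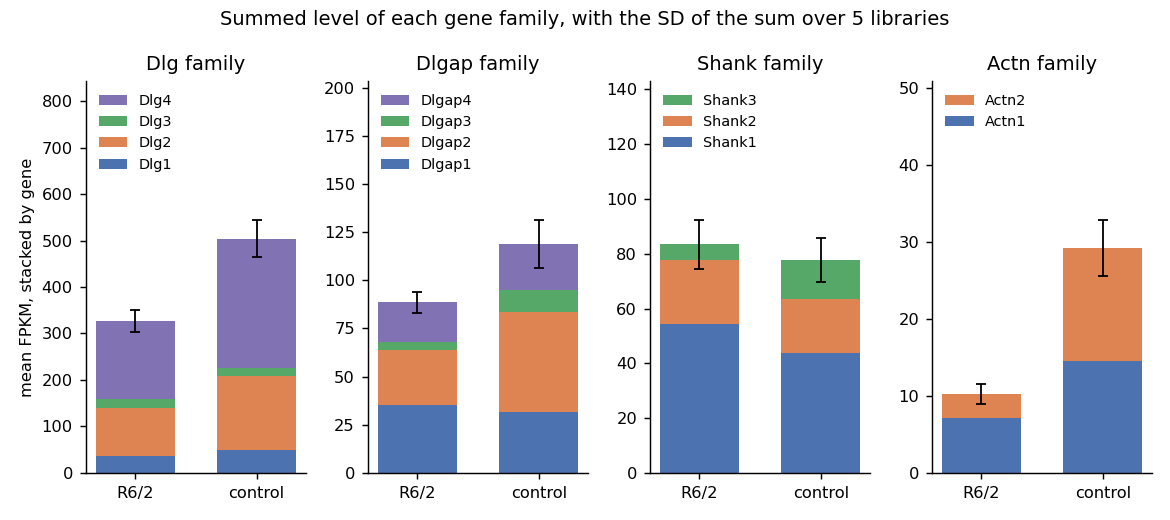
Mean FPKM of the members of the Dlg, Dlgap, Shank and Actn families stacked for R6/2 (left bar of each pair) and control (right bar), with error bars for the SD of the summed level over 5 libraries. The summed Shank level is 83.5 FPKM in R6/2 and 77.7 FPKM in control, whereas the Shank3 layer is smaller in R6/2.

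Of the other scaffolds and adaptors, 5 of 6 were lower. Strn (chromosome 17, 78649913 to 78737196) encodes striatin, a calmodulin-binding scaffold for protein phosphatase 2A that is named after the striatum. It measured 18.4, 19.7, 19.8, 18.8 and 17.1 FPKM in R6/2, against 80.9, 52.7, 61.6, 56.5 and 45.9 FPKM in control. The R6/2 libraries lay close together at 31.5% of the control mean, and the log2 change was -1.59 ± 0.14 (SE, limma adjusted p = 7.4e-05). Akap5 (chromosome 12, 76324891 to 76334153) anchors protein kinase A and calcineurin at the density. It measured 25.7, 24.6, 18.6, 20.7 and 18.5 FPKM in R6/2, against 58.9, 50.2, 60.1, 52.7 and 48.7 FPKM in control, with a log2 change of -1.29 ± 0.11 (SE, limma adjusted p = 8.08e-05).

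Cnksr2, a scaffold of Ras signalling, measured 38.9, 42.1, 43.9, 39.4 and 42.9 FPKM in R6/2, against 69.6, 64.5, 67.4, 59.7 and 80.1 FPKM in control (log2 change -0.70, limma adjusted p = 0.000515). Lzts3, which binds Shank proteins, measured 9.43, 7.15, 8.08, 10.7 and 12.1 FPKM in R6/2, against 28.2, 23.9, 15.3, 19.7 and 12.5 FPKM in control. Its groups nearly met, at R6/2 library 5 and control library 5, and the log2 change was -0.96 (limma adjusted p = 0.0173). Sorbs2, an adaptor that binds Abl kinases and actin regulators, averaged 52.5 ± 4.65 FPKM in R6/2 and 80.9 ± 9.97 FPKM in control (SD, n = 5 each; log2 change -0.61, limma adjusted p = 0.00243). Begain, which binds the guanylate kinase domain of PSD-95, was not called, at 11.7 ± 2.35 FPKM in R6/2 and 12.7 ± 2.00 FPKM in control (SD, n = 5 each; interval -0.46 to 0.22).

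Among the 7 actin-binding proteins, 5 were lower, and they included the largest change of the 37 genes. Actn2 (chromosome 13, 12269426 to 12340760) encodes alpha-actinin-2, a crosslinker that binds NMDA receptors and actin. It measured 4.25, 3.23, 1.74, 3.78 and 2.82 FPKM in R6/2, against 19.1, 15.3, 16.1, 12.7 and 10.3 FPKM in control. The R6/2 mean was 21.5% of the control mean, and the log2 change was -1.92 ± 0.20 (SE, limma adjusted p = 0.000263). With a pseudocount of 5 FPKM it was -1.26, and with one of 0.1 FPKM -2.21. Actn1, the related crosslinker, measured 7.28, 6.43, 6.57, 6.64 and 8.56 FPKM in R6/2, against 14.5, 13.5, 15.6, 15.1 and 13.9 FPKM in control (log2 change -0.94, limma adjusted p = 0.000106). Both fell, but the log2 ratio of Actn1 to Actn2 was 0.99 in R6/2 and 0.01 in control (adjusted exact p = 0.015). This difference of 0.98 was 0.57 with a pseudocount of 5 FPKM.

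Inf2 (chromosome 12, 112588784 to 112615557) encodes a formin that polymerises and severs actin filaments. It measured 10.4, 13.6, 11.5, 10.02 and 13.5 FPKM in R6/2, against 52.8, 41.8, 48.1, 43.7 and 33.5 FPKM in control. No value of either group came near the other, and the log2 change was -1.81 ± 0.13 (SE, limma adjusted p = 3.45e-05). Ppp1r9a encodes neurabin, which brings protein phosphatase 1 to spine actin. It measured 61.6, 59.999, 54.8, 70.6 and 63.1 FPKM in R6/2, against 175, 105, 133, 116 and 111 FPKM in control (log2 change -1.01, limma adjusted p = 0.00101), and control library 1 was the highest by a wide margin. Synpo encodes synaptopodin of the spine apparatus. It averaged 10.1 ± 1.099 FPKM in R6/2 and 18.1 ± 2.72 FPKM in control (SD, n = 5 each; log2 change -0.77, limma adjusted p = 0.00227). Dbn1, which encodes the spine actin protein drebrin, and Cttn, which encodes cortactin, an activator of the Arp2/3 complex, were not called. Dbn1 averaged 9.54 ± 1.95 FPKM in R6/2 and 11.4 ± 1.49 FPKM in control (interval -0.59 to 0.09), and Cttn averaged 9.88 ± 3.17 FPKM in R6/2 and 7.88 ± 1.78 FPKM in control (interval -0.21 to 0.73; SD, n = 5 each).

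**Figure D3:**
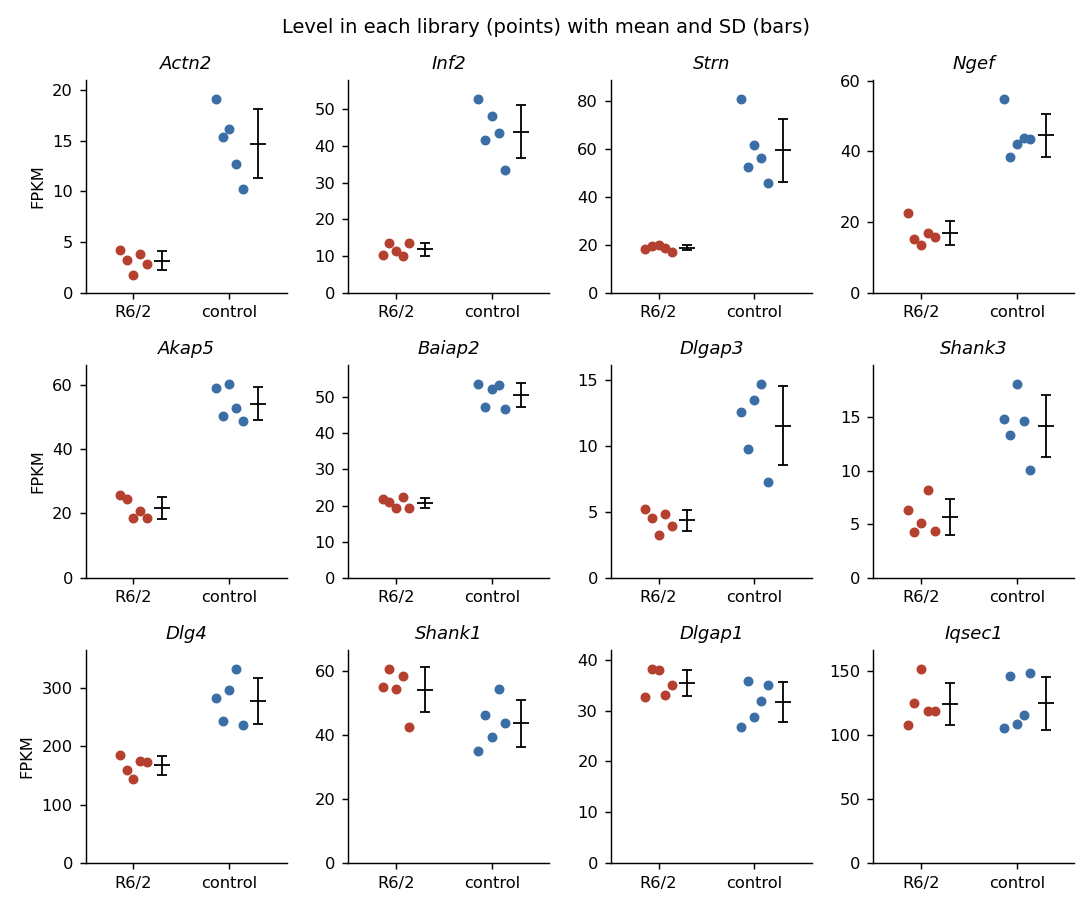
FPKM in each library for 12 of the genes, with R6/2 libraries left and control libraries right in each panel and the mean ± SD of 5 libraries beside the points. Actn2, Inf2, Strn, Ngef, Akap5, Baiap2, Dlgap3, Shank3 and Dlg4 have all R6/2 points below all control points, and Shank1, Dlgap1 and Iqsec1 overlap.

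The regulators of small GTPases fell in 3 of 6 members, all of them exchange factors for RhoA or Rac1. Ngef (chromosome 1, 87476834 to 87573870) encodes ephexin-1, which activates RhoA downstream of EphA receptors. It measured 22.4, 15.3, 13.5, 16.975 and 15.7 FPKM in R6/2, against 54.8, 38.4, 42.1, 43.8 and 43.5 FPKM in control, with library 1 the highest of each group (log2 change -1.37, limma adjusted p = 0.000196). Kalrn encodes kalirin, a Rac1 exchange factor that enlarges spines. It measured 40.9, 41.1, 39.7, 38.0 and 33.2 FPKM in R6/2, against 66.4, 62.6, 58.3, 64.8 and 56.5 FPKM in control (log2 change -0.67, limma adjusted p = 0.000499). Arhgef2, which encodes the RhoA exchange factor GEF-H1, averaged 12 ± 2.29 FPKM in R6/2 and 22.2 ± 3.40 FPKM in control (SD, n = 5 each; log2 change -0.84, limma adjusted p = 0.00388).

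The Arf exchange factors Iqsec1 and Iqsec2 were not called. Iqsec1 measured 108, 125, 151, 118 and 118 FPKM in R6/2, against 105, 146, 109, 115 and 148 FPKM in control, and the interval of its log2 change was -0.29 to 0.29. For Iqsec2, an X-linked intellectual disability gene, the means were 13.6 ± 2.21 FPKM in R6/2 and 13.8 ± 1.31 FPKM in control (SD, n = 5 each; interval -0.28 to 0.24). Arhgap32, a GTPase-activating protein of the density, was not called either, at 146 ± 21.7 FPKM in R6/2 and 169.9 ± 24.5 FPKM in control (SD, n = 5 each; interval -0.50 to 0.07).

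The WAVE complex and its partner Baiap2 were lower in 4 of 4 members, but by unequal amounts. Baiap2 (chromosome 11, 119942763 to 120006782) encodes IRSp53, which links Rac1 and the membrane to WAVE and also binds PSD-95 and Shank. It measured 21.8, 20.9, 19.3, 22.3 and 19.4 FPKM in R6/2, against 53.6, 47.2, 52.2, 53.3 and 46.6 FPKM in control. Both groups were tight, and the log2 change was -1.25 ± 0.07 (SE), with the smallest adjusted p of the 37 genes in limma (9.25e-06). The 3 subunits of the complex fell less. Cyfip2, the subunit that receives Rac1, averaged 99.996 ± 10.8 FPKM in R6/2 and 139 ± 4.56 FPKM in control (log2 change -0.48, limma adjusted p = 0.00454). Wasf1, which encodes WAVE1 and activates Arp2/3, averaged 33.6 ± 1.14 FPKM in R6/2 and 42.8 ± 2.25 FPKM in control (log2 change -0.34, limma adjusted p = 0.00457). Abi1, a linker subunit, averaged 25.3 ± 0.967 FPKM in R6/2 and 32.7 ± 3.76 FPKM in control (log2 change -0.35, limma adjusted p = 0.021; SD, n = 5 each for these subunits). The Abi1 call was lost without R6/2 library 2 (limma adjusted p = 0.0502) and with rescaling to equal protein-coding totals (limma adjusted p = 0.0903).

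Of the kinases, only Cit was called. Cit encodes citron kinase, a RhoA effector whose shorter neuronal form binds PSD-95. It measured 20.5, 11.8, 12.9, 15.7 and 17.6 FPKM in R6/2, against 28.0, 26.6, 28.6, 25.6 and 26.2 FPKM in control (log2 change -0.77, limma adjusted p = 0.00463). Pak1, an effector of Rac1 and Cdc42, averaged 107 ± 10.9 FPKM in R6/2 and 86.6 ± 19.0 FPKM in control (SD, n = 5 each; interval -0.02 to 0.69). Limk1, the kinase that PAK activates to phosphorylate cofilin, averaged 5.48 ± 1.23 FPKM in R6/2 and 3.93 ± 0.968 FPKM in control (SD, n = 5 each), with an interval of 0.03 to 0.76 before adjustment and a limma adjusted p of 0.151.

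Level, gene span and promoter composition were not used to choose the genes. Every member had a control mean between 3.93 and 278 FPKM, with a median of 42.8 FPKM against 6.05 FPKM for all tested genes. The 24 genes called lower had a median span of 90.1 kb and the other 13 one of 81.0 kb, whereas over all tested genes those called lower had a median span of 34.9 kb and those not called 15.3 kb. Promoter windows of the genes called lower had a median of 12 CG dinucleotides, against 29 for windows of the genes not called, with 16 for all 60 windows and 7 for all windows of the mouse table. Exons of 11 of the 37 genes overlap another annotated gene, among them Ngef (Neu2, on the opposite strand), Abi1 (Pdss1, on the opposite strand) and Shank3 (Gm15609). The sources used here give no strand setting for the quantification, so reads of such pairs may not have been told apart.

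The 24 falls were also refitted with the mean log2 level of the 8 cortical markers as a covariate. That level did not overlap between the groups, if only by a small gap, so the group difference and the covariate are partly inseparable. In this limma fit 13 of the 24 genes were still called lower: Cnksr2, Akap5, Strn, Sorbs2, Actn1, Actn2, Synpo, Ppp1r9a, Inf2, Ngef, Kalrn, Cyfip2 and Baiap2. No MAGUK, Dlgap or Shank gene was among them. Dlg4 stood at a log2 change of -0.59 (limma adjusted p = 0.0734), Dlg2 -0.71 (0.0753), Dlg1 -0.51 (0.085), Dlgap3 -0.98 (0.0761), Dlgap2 -0.74 (0.103) and Shank3 -0.93 (0.0825), each still negative. Without the covariate they were, in the same order, -0.72, -0.62, -0.47, -1.20, -0.83 and -1.20. The falls of Dlg2 and Dlg1 were thus larger with the covariate though their calls were lost, and those of the others were smaller. Among the rest, Wasf1 had -0.37 (limma adjusted p = 0.0509), Arhgef2 -0.67 (0.112), Cit -0.52 (0.137), Lzts3 -0.80 (0.253) and Abi1 -0.29 (0.273). Without the covariate these were -0.34, -0.84, -0.77, -0.96 and -0.35, so only the fall of Wasf1 was larger with it. The Dlg, Dlgap and Shank genes not called without the covariate were not called with it either. Their log2 changes with it were 0.08 for Dlg3, -0.05 for Dlgap1, -0.26 for Dlgap4, 0.06 for Shank1 and 0.14 for Shank2. Over all tested genes the covariate fit called 534 lower, against 1449 without the covariate. Among the controls, libraries 1 and 3 had the lowest summed cortical markers (34.5 and 31.1 FPKM). They were the 2 lowest controls for 5 members, Dlgap1, Dlgap4, Shank1, Iqsec1 and Pak1, with 0 called. For 8 members, Shank3, Akap5, Strn, Actn2, Ppp1r9a, Cttn, Inf2 and Cit, they were the 2 highest controls, and 7 of these were called lower. The remaining members had neither order. The part of cortical RNA in these results was not tested.

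**Figure D4:**
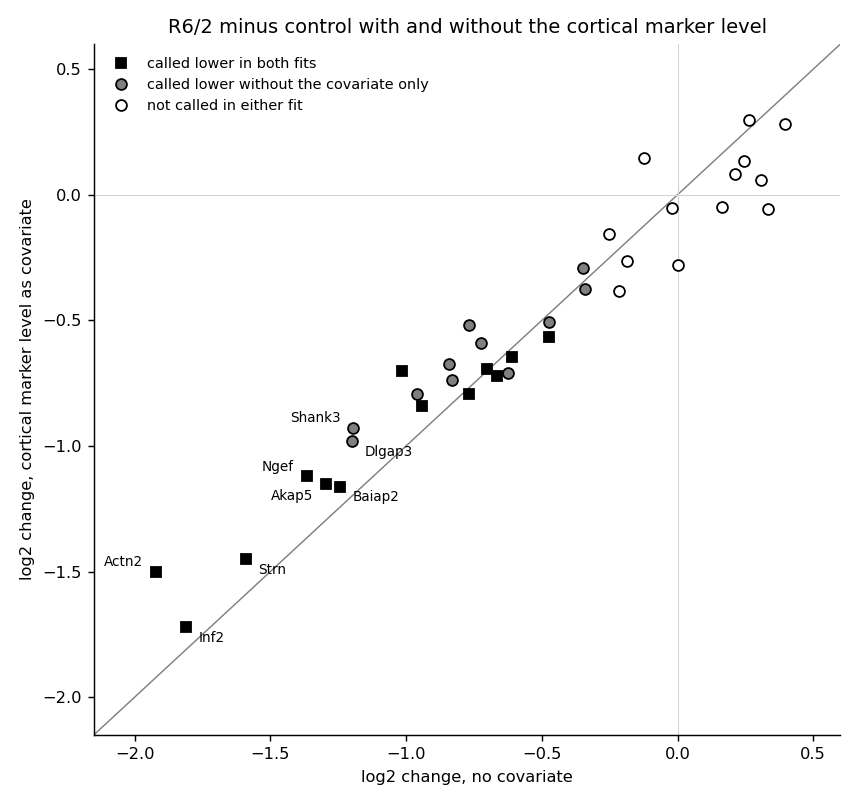
Log2 change in R6/2 relative to control without (x axis) and with (y axis) the cortical marker level as a covariate, 1 point per gene. Squares are the 13 genes called lower in both fits, grey circles the 11 called lower only without the covariate, and open circles the 13 called in neither.

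Other genes of the same pathways were taken from 4 lists. Of 180 such genes, 170 were tested, and 44 were called lower (25.9%) and 7 higher (4.12%), with a median log2 change of -0.08. Of 41 other postsynaptic scaffolds, 14 were lower and 2 higher. Homer1, which crosslinks Shank to metabotropic glutamate receptors, averaged 26.4 ± 1.95 FPKM in R6/2 and 85.1 ± 15.6 FPKM in control (log2 change -1.63, limma adjusted p = 3.36e-05). Camk2a, the calcium-dependent kinase of the density, averaged 393 ± 34.8 FPKM in R6/2 and 671 ± 27.0 FPKM in control (log2 change -0.77, limma adjusted p = 0.000163). Dlg5, a further MAGUK gene, was higher (log2 change 0.53, limma adjusted p = 0.00556), a call lost with the cortical covariate. SDs are over n = 5 in each group.

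Of 42 genes of Rac1, RhoA and Cdc42 signalling, 9 were lower and 3 higher. Bcr, a Rac GTPase-activating protein, averaged 8.32 ± 0.490 FPKM in R6/2 and 22.5 ± 2.79 FPKM in control (log2 change -1.33, limma adjusted p = 3.04e-05). Chn1, which encodes the Rac regulator chimaerin, averaged 77.0 ± 7.73 FPKM in R6/2 and 161 ± 11.6 FPKM in control (log2 change -1.06, limma adjusted p = 5.66e-05), and the Rac exchange factor Dock4 fell as well (log2 change -0.99, limma adjusted p = 0.000139). Among the higher ones, Arhgap44 rose by 0.46 in log2 units (limma adjusted p = 0.00517) and Ssh1 by 0.47 (0.0128), and both calls were lost with the cortical covariate.

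Of 26 genes of the WAVE, WASP and Arp2/3 machinery, 4 were lower and limma called 0 higher, with 1 (Arpc1b) at an unadjusted p under 0.05. Wipf3, a WASP-binding protein, averaged 40.4 ± 5.94 FPKM in R6/2 and 105 ± 14.2 FPKM in control (log2 change -1.36, limma adjusted p = 0.000114). The WAVE complex subunits Nckap1 (log2 change -0.38, limma adjusted p = 0.00454) and Brk1 (-0.46, limma adjusted p = 0.009) fell by amounts like those of Cyfip2, Wasf1 and Abi1. The Nckap1 call was lost with the cortical covariate, and the Brk1 call in another alternative. Of 61 other actin genes, 17 were lower and 2 higher. The cyclase-associated proteins Cap1 and Cap2, which recycle actin monomers, had log2 changes of -0.97 and -0.63 (limma adjusted p = 0.000161 and 0.000266). The 2 higher ones were Enah (log2 change 0.49, limma adjusted p = 0.0194), whose groups overlapped, and the formin Fmnl2 (0.41, limma adjusted p = 0.0368). The Enah call was lost in 1 alternative and the Fmnl2 call in several. Inf2 and Fmnl2, both formins, thus had opposite signs in R6/2 striatum.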

How the data were processed

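Striatal RNA of 5 R6/2 and 5 isogenic control libraries was measured by RNA-seq. The deposited table holds FPKM values made by the authors. The submitters' processing notes name build GRCm38 and the tools STAR 2.4.0, Cufflinks and Cuffdiff. What each tool did, which annotation was used, and how strand and library scaling were handled is not stated there. The labels name another file, which was not analysed here. Every value column belonged to a labelled sample.

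Symbols and coordinates came from GENCODE M21 (GRCm38), which gave a symbol to 47220 of 47632 IDs, 39102 with the same version. Genes averaging 1 FPKM or more across the 10 libraries entered the test on log2(FPKM + 1), R6/2 minus control, with limma 3.58.1 (moderated test with a mean-variance trend, two-sided) in R 4.3.3, adjusted by Benjamini-Hochberg over all 15905. The residual degrees of freedom were 8. The model was tested on simulated data first. Other steps used Python 3.11.15, pandas 2.3.3, scipy 1.17.1 and matplotlib 3.10.9. Ratios between members of a family were compared by exact permutation. The members and lists were chosen with earlier results of these data known, and a rule named the text's genes: every member, in full where called or related to a called one, and from each pathway list up to 3 called genes per direction with the smallest adjusted p. Of 180 pathway list genes 178 matched (Pdxp and Testk1 did not). Some genes that the rule picks are not reported here.

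FPKM values carry no counts, so no counting interval is given. In each library but control 1, the reference, 68.5% to 76.4% of 607 to 939 low genes lay on a step of 1 to 4 whole reads. On the main step alone lay 26.9% to 35.5%, and the shares that chance would give are not known. The steps thus gave an approximate relative depth and no absolute depth. Alternatives were other pseudocounts (0.1 and 5 FPKM), other filters (none, or a mean of 5 FPKM), quantile normalization, rescaling to equal protein-coding totals, array weights, a cortical marker covariate, a replicate block and leaving out each library.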

Additional observations from a re-analysis of the deposited data

Results flagged for a closer look

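Single libraries stood far from the other 4 of their group in 4 of the 74 sets of 5 values examined, by Dixon's gap test, which chance alone would flag in about 1 set in 20. R6/2 library 2 had 6.17 FPKM of Dbn1, against 9.86 to 11.1 FPKM in the other R6/2 libraries. The remaining 3 were all control library 5, which was also the lowest control for 13 of the 24 genes called lower. It had 32.3 FPKM of Dlgap4, against 20.8 to 22.3 FPKM in the other controls. Its Sorbs2 level was 98.1 FPKM, against 72.4 to 79.8 FPKM in the others, and its Synpo level was 13.3 FPKM, against 18.6 to 20.1 FPKM in the others.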

How the results depend on the processing

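The count of genes called (2244) was 663 with the cortical marker covariate and 1345 with the replicate block. Those lower (1449) were 534 with the covariate, and those higher (795) were 129 with it, 370 with the block and 1520 with protein-coding rescaling. The share of calls that were lower was 64.6%, against 53.5% with quantile normalization and 42.7% with rescaling. The protein-coding totals that rescaling makes equal were 193203 to 202906 FPKM in R6/2 and 211209 to 219426 FPKM in control. They did not overlap between the groups. With rescaling the median log2 change of all tested genes was 0.09, against 0.00 in the main fit, so the balance of falls and rises depends on the scaling. Of the 37 genes, 24 were called lower, 13 with the covariate, and 23 to 24 on leaving out each library; those called higher (0) were 1 with rescaling (Shank2). The 51 pathway list genes called were 25 with the covariate. Leaving out each library gave 1676 (without control 3) to 2364 (without control 5) called genes. The causes were not tested.

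With the covariate, Dlgap1 changed sign (-0.049), as did Pak1 (-0.057) and Begain (0.14). Iqsec1 was 0.12 with quantile normalization, 0.11 with rescaling and -0.073 to 0.066 on leaving out libraries. Iqsec2 was 0.027 with quantile normalization, 0.028 with array weights, 0.088 with rescaling and -0.084 to 0.067 on leaving out libraries, and the Iqsec1 to Iqsec2 log2 ratio was -0.053 to 0.13 then. None of these was called in any setting. Over members and settings, log2 changes kept sign and side of the threshold in 707 cases and lost the call in 16. Limk1 has no value at a minimum of 5 FPKM.

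Replicate numbers did not pair the samples: same-numbered libraries deviated with correlations of -0.053 to 0.049, and only number 5 correlated best with its own. With the number as a block, Dlg2 (limma adjusted p = 0.058), Lzts3 (0.072) and Abi1 (0.0893) lost their calls, as did the named pathway genes Ssh1, Brk1, Enah and Fmnl2.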
